A study of Homo sapiens with 9 samples.

Results

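Full-length NRSF was compared with a truncated form of the same protein in the human neuroblastoma line SK-N-AS. One set of cells was given RE-EX1, the construct for the full-length form, and another HZ4, the construct for the truncated form, and RNA was collected at 24 and 48 h. Each construct and hour is 1 Affymetrix expression array, so 4 of the 9 arrays of the series were set against each other, construct against construct at the same hour. The 0 h arrays of both constructs, which the labels call baseline controls, served only to show how far the constructs stood apart before the time course. Untreated SK-N-AS cells have 1 array at each of these hours, and their values are given beside part of the genes described. The sources used here do not give the promoter of either construct, how it was delivered, which part of NRSF the HZ4 form lacks, or an array with an empty construct. The series description speaks of replicate samples in several batches, but no label ties an array to a replicate or batch, so a difference at 1 hour has no replicate check.

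Of 54613 non-control probe sets, 16582 (30.4%) had a signal of 100 or more on at least 2 of the 4 arrays and were compared. Of these, 13534 reached 100 on all 4 arrays, 163 passed only through both full-length arrays, and 246 only through both truncated arrays. The latter 2 kinds had to read lower with the other construct. A single gene was named by 14643 of the probe sets, and each of 8773 genes was read by its brightest one. For 588 genes that probe set has an identifier marking possible cross-hybridization, and such genes are called uncertain. Signals below 50 were set to 50 and the log2 was taken. A difference is full-length minus truncated on this log2 scale, so that 1 is a 2-fold higher signal with full-length NRSF.

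NRSF, the product of the REST gene, is a zinc finger repressor that binds RE1 elements and recruits the SIN3 and CoREST corepressors with their histone deacetylases and demethylases. It keeps neuronal genes silent in other tissues, and its level drops as neurons mature. Naturally occurring truncated forms lack the C-terminal repressor domain and can interfere with the full-length protein.

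The median signal of the 4 arrays was 32.82 to 42.67, with the highest on the truncated 24 h array. That array also had the lowest median correlation with the other arrays, 0.922 against 0.929 to 0.937 (log2 signals across probe sets, which are not independent replicates). For ACTB, the 3' over 5' control ratio was 3.63 and 2.49 on the full-length arrays at 24 and 48 h, and 3.23 and 2.84 on the truncated arrays. Values below 50 made up 0.555% to 0.724% of the members on these 4 arrays, against 1.59% and 1.64% on the 0 h arrays, which took no part in choosing the members.

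REST was read first, because both constructs are built on it. Its brightest probe set gave signals of 268.3 and 273.5 with full-length NRSF at 24 and 48 h, and 323.1 and 341.6 with truncated NRSF. At 0 h the signals were 171.1 and 162, and in untreated cells 177.2, 444.7 and 260.3 at 0, 24 and 48 h. REST thus read slightly lower with the full-length than with the truncated construct at both hours (differences of −0.27 and −0.32), and the mean difference was not called (−0.29 ± 0.26, standard error; limma adjusted p = 0.93). The other 2 REST probe sets did not reach 100 on 2 arrays. One read 16.15 and 16.48 with full-length against 122 and 44.29 with truncated NRSF, and the other read 24.56 and 50.39 against 31.01 and 29.49. No source at hand says whether these probe sets lie in the sequence of either construct, so the REST values are no check of the labels.

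The genes that stood apart between constructs at both hours were few and of mixed function. At 2-fold or more in the same direction at 24 and 48 h, 14 probe sets were higher with full-length NRSF (0.0844% of members) and 30 were higher with truncated NRSF (0.181%). Read by gene these were 8 (0.0912%) and 16 (0.182%). In RNA of a whole culture, fewer cells with a transcript and less of it per cell cannot be told apart. Most were dim: 10 of the 14 and 22 of the 30 reached 100 only with the construct in which they were higher, and the mean signal was 200 or more for 3 and 6. The smaller difference of the pair of hours had a median of 1.08 log2 in the first group and 1.14 in the second. At 0 h, 12 of the 14 and 24 of the 30 differed by less than 2-fold, 2 and 3 already differed by as much in the same direction, and 3 of the 30 differed in the opposite direction.

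Of the genes higher with full-length NRSF, CTF1 stood furthest apart with the floor of 50. It encodes cardiotrophin, a cytokine of the interleukin 6 family. Its signals were 181.1 and 202.1 with full-length NRSF at 24 and 48 h, against 56.74 and 20.32 with truncated NRSF, a difference of 1.67 and 2.02 after the floor of 50. Both truncated arrays read under 100, so the signal rule itself put both full-length arrays above them. The 0 h arrays read 213 and 3.645, and the untreated arrays 25.34, 7.174 and 48.67. The full-length series was thus high at every hour, before the time course too, and the other series were low. With the floor at 100 the mean difference of CTF1 went from 1.84 to 0.94, below those of CDC73 (1.26) and AP1G1 (1.04), whose signals lie above either floor.

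BMP1, the protease that trims procollagen, read 147.4 and 176.8 with full-length against 45.64 and 69.49 with truncated NRSF (1.56 and 1.35), and 0.16 apart at 0 h. B3GAT3, an enzyme that builds the linker of glycosaminoglycan chains, read 124.6 and 170.3 against 55.15 and 43.44 (1.18 and 1.77; −0.48 at 0 h). POLR1A, the largest subunit of RNA polymerase I, read 264.9 and 180.1 against 129.8 and 47.96 (1.03 and 1.85; −0.15 at 0 h). In BMP1 and B3GAT3 both truncated arrays read under 100, so the signal rule itself put both full-length arrays above them. POLR1A had the same order without that, and in each of the 3 genes 1 truncated array lay under 50. Untreated cells at 24 and 48 h read 73.68 and 102 for BMP1, and 113.6 and 107 for B3GAT3. For POLR1A they read 124.2 and 136.8. With the floor at 100 the mean difference went from 1.45 to 0.69 for BMP1, from 1.47 to 0.54 for B3GAT3 and from 1.44 to 0.94 for POLR1A. No other BMP1 probe set passed the signal rule or shared the difference at both hours. Among them, 1 differed by 0.84 and −0.02 and another by −1.24 and −0.02. The other B3GAT3 probe set, also below the rule, differed by −0.16 and 0.49. A second POLR1A member probe set differed by 0.04 and 1.06.

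AP1G1 was brighter. It encodes the gamma subunit of the clathrin adaptor of the trans-Golgi network. Its signals were 732.3 and 843.5 with full-length NRSF and 358.3 and 409.9 with truncated NRSF, a difference of 1.03 and 1.04. At 0 h they were 725.1 and 823.9, and untreated cells read 786.2, 665.5 and 716.9. The truncated arrays at 24 and 48 h were the low ones, and the other 7 values lay between 665.5 and 843.5. The other 2 AP1G1 probe sets differed by 0.27 and −0.03, and by 0.21 and 0.17. Of the 14 probe sets, 3 reached 100 on all 4 arrays, those of AP1G1 and CDC73 and 1 of 5 for NIPBL, the cohesin loader, which was chosen after its values were seen. The NIPBL probe set read 289.6 and 356.2 against 141.1 and 125.2 (1.04 and 1.51). The brightest NIPBL probe set read 1332 and 694.3 against 1186 and 860.1 (0.17 and −0.31) and did not share the difference.

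Among genes higher with truncated NRSF, N4BP1, an RNA-degrading inhibitor of innate immune signalling, read 261 and 228.9 with full-length against 545.1 and 589.2 with truncated NRSF. The differences were −1.06 and −1.36, and −1.01 at 0 h, and untreated cells read 340.7, 445.5 and 375.6. The full-length array was the lowest of the 3 series at each hour. A second N4BP1 probe set differed by −0.78 and −0.84, but by 0.31 at 0 h, and another by 0.56 and 0.22.

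MAST2, a microtubule-associated kinase, read 321.3 and 243.3 against 681.8 and 537.2 (−1.09 and −1.14). At 0 h it stood the other way, with 462.7 against 203.1 (1.19). KIFC1, a minus-end directed kinesin of the mitotic spindle, read 87.07 and 33.05 against 318.1 and 125.4 (−1.87 and −1.33), and 170 against 92.72 at 0 h. KLHL36, a kelch protein, read 65.55 and 132.7 against 145.5 and 334.8 (−1.15 and −1.34), and 277.3 against 181.6 at 0 h. On these 3 probe sets the order of the constructs at 24 and 48 h was the reverse of that at 0 h. For KIFC1 both full-length arrays at 24 and 48 h read under 100, so the signal rule itself set the order at those hours. A second MAST2 probe set differed by −0.85 and 0.00, and by −0.31 at 0 h, without the reversal or a difference at 48 h. A second KLHL36 probe set differed by −0.88 and −0.01, and by 1.02 at 0 h. With the floor at 100 the mean difference of KIFC1 shrank from −1.60 to a 2-fold one. Untreated cells at 24 and 48 h read 185.2 and 260.8 for MAST2, and 112.9 and 91.58 for KIFC1. For KLHL36 they read 109.6 and 141.9. In each of these 3 genes the untreated array read below the truncated array of the same hour.

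Like KIFC1, the genes given next read under 100 on both full-length arrays. CTDP1, a phosphatase of the RNA polymerase II tail, read 67.66 and 56.13 against 218.5 and 176.6 (−1.69 and −1.65; −0.89 at 0 h). LIMD1, a LIM domain scaffold read by an uncertain probe set, read 67.96 and 53.36 against 179.4 and 140.6. Such genes passed the signal rule only through both truncated arrays, so the rule itself put these above both full-length arrays. Untreated cells at 24 and 48 h read 67.69 and 103.2 for CTDP1, and 59.86 and 25.27 for LIMD1. A second LIMD1 member probe set, also uncertain, read 68.4 and 81.84 against 102.8 and 111.2 (−0.59 and −0.44). It too passed only through both truncated arrays, so the rule set its direction as well. TBRG1, a growth regulator, read 56.25 and 47.09 against 182.1 and 103, and 104.3 and 26.33 in untreated cells at 24 and 48 h. No other TBRG1 probe set passed the signal rule. Among them, 1 differed by −1.05 and 0.90 and another by −1.07 and 0.00. SFN, the 14-3-3 sigma protein and a p53 target, read 59.35 and 78.76 against 124.3 and 168.1, and untreated cells read 112.8, 120.4 and 98.83. Neither of the other SFN probe sets passed the signal rule. Of these, 1 differed by −0.50 and 0.34, and 1 read under 50 on all 4 arrays. CEBPA-DT, a noncoding transcript divergent from CEBPA, read 62.85 and 26.01 against 143.7 and 100.2, and 52.71 and 10.93 in untreated cells. With the floor at 100 the mean differences of these 5 genes went from between −1.67 and −1.08 to between −0.97 (CTDP1) and −0.26 (CEBPA-DT). Of all these genes, from CTF1 to CEBPA-DT, only CDC73 passed the fit across all members that is described next (limma adjusted p of 0.084 for N4BP1, 0.09 for CTF1 and 0.11 or more for the others).

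**Figure D1:**
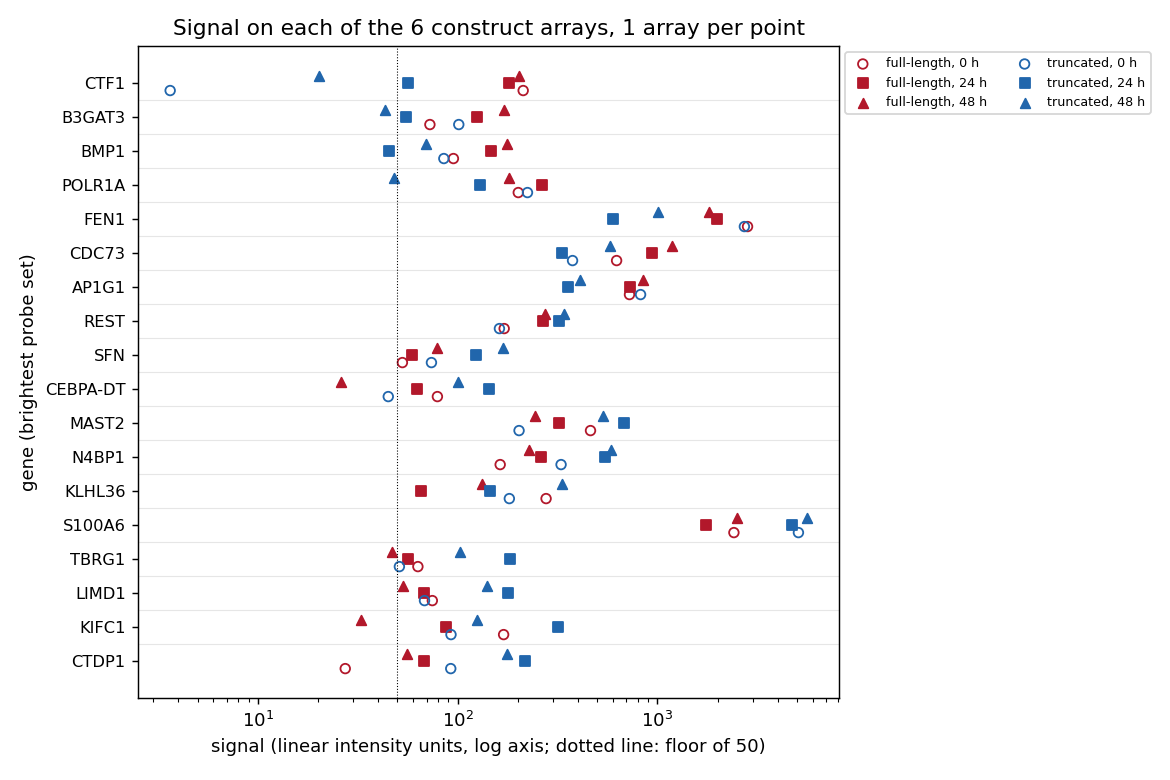
Signal (linear intensity units on a log axis) of each gene's brightest probe set on the 6 construct arrays, 1 point per array. Shown are REST, the named genes of the construct fit and genes 2-fold different at both hours. The latter also had to read 50 or more on both arrays of at least 1 hour. CTF1 and S100A6 were already apart at 0 h (open circles), at 213 against 3.645 and 2415 against 5080, whereas AP1G1 and FEN1 lay together at 0 h, and the dotted line marks the floor of 50.

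The construct fit asked which mean differences over both hours were large against a spread taken mostly from probe sets of like brightness. It did not ask whether a difference was steady. AP1G1, at 1.03 and 1.04, was not called (limma adjusted p = 0.12). The fit took 24 and 48 h as repeated readings of 1 construct difference, with the hour as a block (limma, 2 arrays per construct). It called 6 of the 16582 probe sets (0.0362%) at an adjusted p under 0.05, 2 higher with full-length (0.0121%) and 4 higher with truncated NRSF (0.0241%). An unadjusted p under 0.05 was given for 1089 (6.57%). The named calls were S100A6, FEN1 and CDC73. The other 3 probe sets name several genes or none here.

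S100A6, the calcium-binding protein calcyclin, was the brightest named call. Its signals were 1755 and 2497 with full-length NRSF at 24 and 48 h, and 4722 and 5604 with truncated NRSF. It was lower with full-length NRSF, with differences of −1.43 and −1.17 and a mean of −1.30 ± 0.19 (limma adjusted p = 0.0035). The 0 h arrays already differed by −1.07, at 2415 and 5080, and untreated cells read 5319, 4675 and 6642. The 3 full-length arrays thus lay below all 6 others. Without the truncated 24 h array the fit, with the untreated arrays added, gave −1.17 (adjusted p = 0.021).

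Probe set 1554089_s_at, which names several genes, had the same pattern. It read 676.8 and 960.7 with full-length and 2907 and 2377 with truncated NRSF (−1.71 ± 0.21, limma adjusted p = 0.00088), 489.1 and 1435 at 0 h, and 1480, 2408 and 1940 in untreated cells. Probe set 230746_s_at read 2373 and 2240 against 6385 and 3738 (−1.08 ± 0.20, adjusted p = 0.045), and 6244 and 4494 in untreated cells at 24 and 48 h. Probe set 217379_at read 604.7 and 568.9 against 1111 and 1650 (−1.21 ± 0.22, adjusted p = 0.045), and 1080 and 1693 in untreated cells. In all 4 probe sets called higher with truncated NRSF, the untreated arrays of 24 and 48 h read above both full-length arrays.

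FEN1, the flap endonuclease that trims Okazaki fragments in DNA replication, was called in the other direction. Its signals were 1977 and 1818 with full-length NRSF and 602.6 and 1003 with truncated NRSF, a difference of 1.71 and 0.86 (mean 1.29 ± 0.22, limma adjusted p = 0.037). At 0 h the constructs read 2826 and 2725, and untreated cells read 1952, 1401 and 1790. The truncated arrays at 24 and 48 h were the lowest of the 9. A second FEN1 probe set did not share the difference, with 762.7 and 975 against 823.2 and 972.6. With the untreated arrays added FEN1 kept its call (limma adjusted p = 0.045), and without the truncated 24 h array that fit gave 0.98 (adjusted p = 0.091).

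CDC73, a subunit of the PAF1 complex that travels with RNA polymerase II, read 942 and 1185 with full-length against 334.2 and 581.6 with truncated NRSF. The difference was 1.50 and 1.03 (mean 1.26 ± 0.23, limma adjusted p = 0.045), and 0.73 at 0 h, where the signals were 625 and 376.2. Untreated cells read 597.1, 793.6 and 484.9, between the constructs at 24 h and below both at 48 h. The other 2 CDC73 probe sets differed by 0.24 and 0.13, and by 0.13 and −0.22. With the untreated arrays added to the fit, the calls of CDC73 (limma adjusted p = 0.19), 230746_s_at (0.084) and 217379_at (0.077) ended. Their differences stayed the same, at 1.26, −1.08 and −1.21. In that fit without the truncated 24 h array, which leaves only the truncated 48 h array, CDC73 stood at 0.77 and 230746_s_at at −0.84. There 217379_at stood at −1.35, a larger difference than with that array.

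A total of 5 probe sets differed 2-fold in 1 direction at all 3 hours, 0 h included. These were CTF1 and RAB4B, higher with full-length NRSF, and S100A6, N4BP1 and 1554089_s_at, lower with it. RAB4B, a GTPase of endosome recycling that was chosen after its values were seen, read 143.9, 125.1 and 142.6 with full-length NRSF at 0, 24 and 48 h. The truncated series read 15.45, 5.848 and 17.64, and the untreated series 4.279, 5.628 and 51.36. In these 5 probe sets the untreated array of each hour read nearer, on the log2 scale after the floor of 50, to the truncated than to the full-length array. CTF1 and RAB4B passed the signal rule only through both full-length arrays. Most of their truncated and untreated values were under 50 and set to it, so their nearness came largely from the floor.

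Over all members, the constructs differed about as much at 0 h as later. At 24 h 308 probe sets were 2-fold higher with full-length (1.86%) and 456 with truncated NRSF (2.75%), 764 in all (4.61%). At 48 h there were 217 and 217 (1.31% each, 2.62% in all). At 0 h the counts were 245 (1.48%) and 331 (2%), 576 in all (3.47%). The 0 h counts are not fully alike, since the members were chosen on the 24 and 48 h arrays. More members read below 50 at 0 h (1.59% and 1.64% against 0.555% to 0.724%). Read by gene, 169 (1.93%) and 128 (1.46%) differed at 24 h, 72 (0.821%) and 115 (1.31%) at 48 h, and 93 (1.06%) and 134 (1.53%) at 0 h. The SD of the differences across probe sets was 0.44 at 0 h, 0.48 at 24 h and 0.40 at 48 h, and the median absolute difference was 0.27, 0.29 and 0.23. With quantile normalization the split at 24 h turned to 438 higher with full-length and 389 higher with truncated NRSF.

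A difference seen at 1 hour was seldom seen at the other. The 14 probe sets higher with full-length NRSF at both hours are 4.55% of those at 24 h and 6.45% of those at 48 h, and the 30 higher with truncated NRSF are 6.58% and 13.8%. Another 13 probe sets were 2-fold higher with full-length NRSF at 24 h and with truncated NRSF at 48 h, and 24 the reverse. Across the 16582 probe sets, the differences at 24 and 48 h had a Pearson correlation of 0.06 and a Spearman correlation of 0.05, and 51.2% of 16559 with nonzero values had the same sign. The differences at 0 h and 24 h, which also share no array, had a Pearson correlation of 0.05, and those at 0 h and 48 h 0.03. Probe sets are not independent replicates, and the values within 1 hour share the same pair of arrays.

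**Figure D2:**
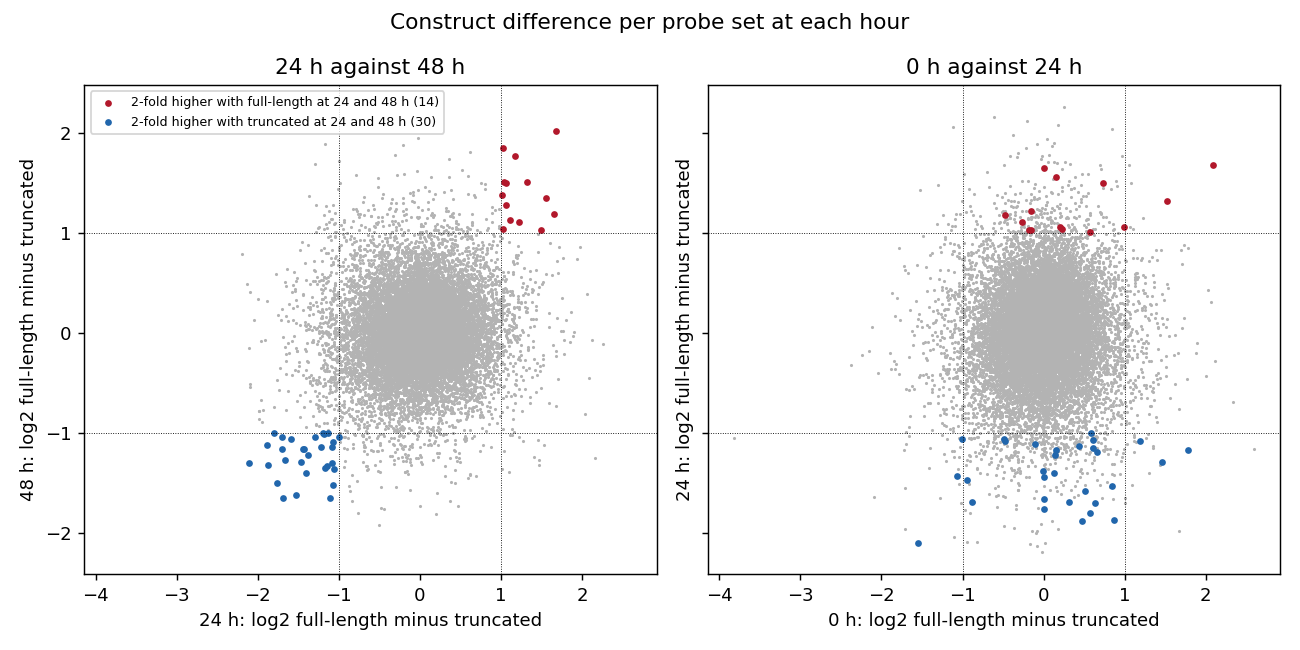
Construct difference (log2 full-length minus truncated) of each of the 16582 member probe sets, at 24 h against 48 h on the left and at 0 h against 24 h on the right, with dotted lines at 2-fold. The cloud is round in both panels (Pearson 0.06 and 0.05), and the 14 red and 30 blue points are the probe sets 2-fold different in 1 direction at 24 and 48 h.

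Probe sets of the same gene rarely repeated each other's difference. In 3689 genes with at least 2 member probe sets, the differences of the 2 brightest had a Pearson correlation of 0.09 at 24 h, 0.06 at 48 h and 0.10 at 0 h across genes. Of 65 genes whose brightest probe set was 2-fold different at 24 h, the second was 2-fold different the same way in 3 (4.62%). These were KIAA0319L (1.02 and 1.59), OBSL1 (1.18 and 1.47) and the uncertain AKR1C2 (−1.31 and −1.88). Of 32 genes at 48 h there were 2 (6.25%), POLR1A (1.85 and 1.06) and RAB5C (1.16 and 1.16). These genes were chosen after their values were seen.

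AKR1C2 is a steroid-converting aldo-keto reductase. Its brightest probe set read 85.63 with full-length and 212.5 with truncated NRSF at 24 h, and 351.8 and 338.6 at 48 h. RAB5C, a GTPase of early endosomes, read 1286 against 577.2 at 48 h and 892.3 against 672.5 at 24 h on its brightest probe set. On its second it read 1024 against 459.6 and 596.9 against 534.2. Of the 5 genes only POLR1A was 2-fold different at both hours on its brightest probe set, and its second probe set read 129.3 against 126 at 24 h.

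RE1 target genes are the neuronal genes that NRSF is known to repress, and the measured ones are described here by their counts and medians beside those of all genes. Of 82 listed target genes 18 passed the signal rule, 54 did not and 10 had no probe set naming them alone. None of the 18 was 2-fold different at both hours, where 0.274% of all genes were. At 24 h 1 was 2-fold higher with full-length NRSF (1.93% of all genes) and at 48 h 0 were 2-fold different (0.821% and 1.31% of all genes in the 2 directions). Counts this low are near those shares and say nothing particular of RE1 targets. The median difference of the 18 was 0.11 at 24 h, −0.07 at 48 h and −0.11 at 0 h, and over all 8773 genes it was 0.07, −0.02 and 0.00. No RE1 gene was called by the limma fit, which called 0.0362% of all probe sets. Unadjusted limma p-values under 0.05, which 6.57% of all probe sets had, were given for NEFM (0.0014), CPE (0.024) and CRH (0.044). Each of these genes differed more at 24 h than at 48 h.

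The largest difference was in a neurofilament gene. NEFM, the medium neurofilament subunit, read 1753 and 1684 with full-length against 793.5 and 1263 with truncated NRSF (1.14 and 0.41; −0.19 at 0 h), and 1638 and 1520 in untreated cells at those hours. The truncated 24 h array was the low one. NEFL, the light subunit, read 2146 and 2339 against 1362 and 2727 (0.66 and −0.22). INA, alpha-internexin, read 455.3 and 259.7 against 359.9 and 180.9 (0.34 and 0.52), but 0.59 apart at 0 h as well. MAPT, which encodes tau and is read by an uncertain probe set, differed by 0.12 and −0.46.

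Targets of the secretory granule were bright in part. CRH, corticotropin-releasing hormone, read 2630 and 6845 against 1491 and 6681 (0.82 and 0.03). CPE, the carboxypeptidase that trims prohormones, read 370.3 and 465 against 219.9 and 336.1 (0.75 and 0.47). SCG2, a granin, read 460.7 and 668.9 against 496.4 and 1056 (−0.11 and −0.66; −0.52 at 0 h). The peptide gene NPY read 270.8 and 750.3 against 402.8 and 707.1 (−0.57 and 0.09), after −1.04 at 0 h. CRH, SCG2 and NPY thus differed at 1 of the hours and hardly at the other.

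The measured targets of the synapse and membrane differed by less than 1 log2 at each hour. SNAP25, a membrane fusion protein of synaptic vesicles, read 154.6 and 200.2 against 185.7 and 369.1 (−0.26 and −0.88). SYT1, the calcium sensor of vesicle release, read 404.3 and 280.7 against 370.4 and 339.1 (0.13 and −0.27). KCNH2, a potassium channel, read 659 and 715.1 against 615.7 and 962.8 (0.10 and −0.43). The adhesion gene L1CAM differed by 0.68 and −0.01, and CELSR3, an adhesion receptor, by −0.49 and −0.48, after −0.69 at 0 h. Of the 3 targets that reached 100 on 1 array only, 2 did so with full-length NRSF and the other with truncated NRSF. CHGA, the granule protein chromogranin A, was among the former and did not pass the signal rule. It read 129.1 with full-length and 11.33 with truncated NRSF at 24 h, an order set by its reaching 100 on that array alone.

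**Figure D3:**
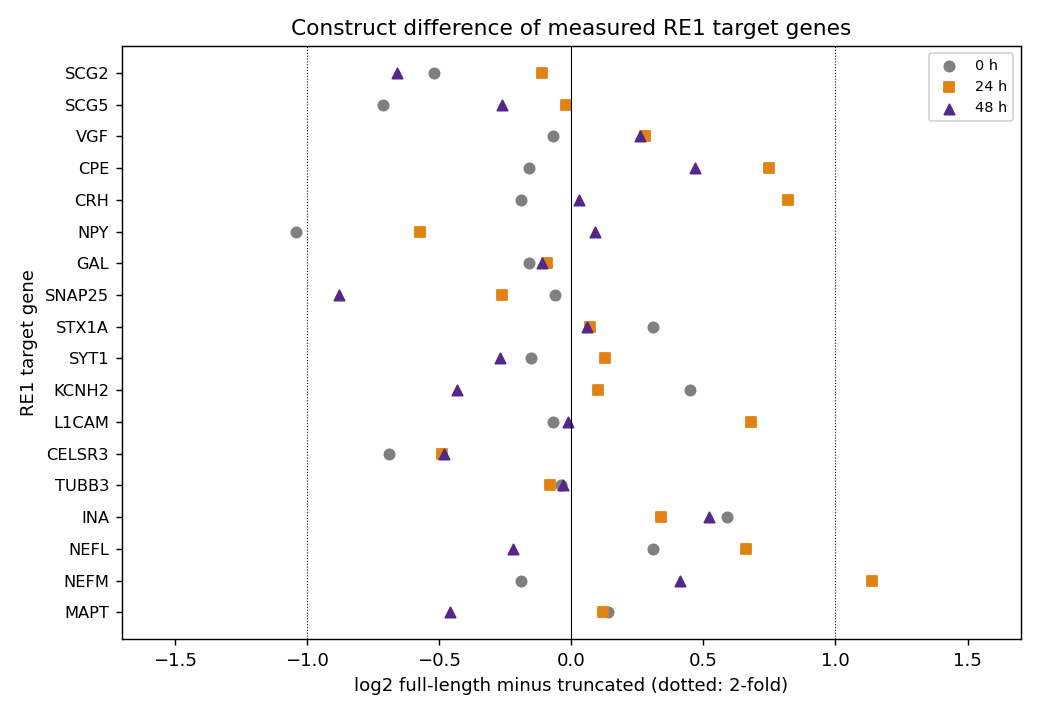
Construct difference (log2 full-length minus truncated) of the 18 measured RE1 target genes at 0, 24 and 48 h, 1 point per hour, with dotted lines at 2-fold. NEFM at 24 h (1.14) and NPY at 0 h (−1.04) lie beyond 2-fold, and for many genes the 3 hours fall on both sides of 0.

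Promoter sequences were searched for the RE1 element itself, because it is the site through which NRSF acts. The motif searched was CAGCACCNNGGACAGC, on both strands, in windows of 250 bases before to 50 bases after each start site (RefSeq, GRCh38.p14). With at most 1 mismatch in its 14 fixed letters it was in 41 of 35116 windows (0.117%). It was in 7 of the 7363 member genes with a window (0.0951%) and in 0 of the 20 genes with a window that were 2-fold different at both hours. RE1 elements often lie further from the start site, so a gene without a match here may have one elsewhere. The first 3 matches below are among those of the 7 member genes, and the last belongs to a listed RE1 target. They are shown because there the construct comparison can be read at a gene with an RE1-like sequence. Capitals mark letters that match the motif.

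VGF: CAGCACgctGGACAGC
SCAMP5: tAGCACCtcGGACAGC
RNF11: CAGCACCgaGaACAGC
TUBB3: CAGCcCCctGGcCAGC

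The VGF match lies at chr7:101165561-101165576 over the start site, on the strand opposite to the gene. The SCAMP5 match is at chr15:74995388-74995403, starting 175 bases before the start site, and that of RNF11 is at chr1:51236167-51236182. The TUBB3 match, at chr16:89921813-89921828, has 2 mismatches. At up to 2 mismatches 284 windows (0.809%) and 82 member genes (1.11%) had a match. The bases before the SCAMP5 start site (chr15:74995313-74995562, plus strand) are given as an example of such a promoter, with the match in capitals including its unmatched letters.

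SCAMP5: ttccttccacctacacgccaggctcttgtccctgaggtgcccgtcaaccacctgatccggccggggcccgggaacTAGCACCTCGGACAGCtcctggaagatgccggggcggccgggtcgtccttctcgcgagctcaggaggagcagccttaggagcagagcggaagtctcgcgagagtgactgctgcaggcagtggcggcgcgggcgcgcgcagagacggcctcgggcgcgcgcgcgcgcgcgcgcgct

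The genes with these sequences differed by at most 0.28 log2 between constructs at 24 and 48 h. VGF, a neuropeptide precursor read by an uncertain probe set, read 614.9 and 467.2 with full-length against 508.1 and 388.9 with truncated NRSF (0.28 and 0.26). SCAMP5, a membrane protein of synaptic vesicles, read 118.4 and 93.9 against 137.6 and 79.72 (−0.22 and 0.24). RNF11, a ubiquitin ligase, read 1334 and 1213 against 1219 and 1158 (0.13 and 0.07). TUBB3, neuronal beta-tubulin, is also uncertain and read 1742 and 1763 against 1839 and 1798 (−0.08 and −0.03). In the 7 member genes with at most 1 mismatch the difference was at most 0.45 in size at 24 h (OSTM1) and at most 0.26 at 48 h (VGF).

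Genes of the NRSF machinery itself were measured in 25 of 31 cases, and none was called by the limma fit (0.0362% of probe sets) or 2-fold different at both hours (0.274% of genes), counts near those shares. Their median difference was 0.00 at 24 h and 0.09 at 48 h. KDM5C, a histone demethylase that partners NRSF, was the 1 member at 2-fold (1.46% of all genes were higher with truncated NRSF at 24 h), with 52.55 and 152.9 with full-length against 142.5 and 116.7 with truncated NRSF (−1.44 and 0.39). Its mean difference, −0.52, was −0.06 with the floor at 100. SIN3A, a corepressor scaffold just under 2-fold at 24 h, read 132.5 against 264.3 there and differed by 0.00 at 48 h. HDAC3, a histone deacetylase, read 269 and 282.3 against 467.7 and 395 (−0.80 and −0.48). BTRC, the F-box protein that marks NRSF for degradation, read 193 and 164.1 against 122.4 and 94.58 (0.66 and 0.80; −0.57 at 0 h). HDAC2 read 657.4 and 823.4 against 407.1 and 653.9. The corepressor genes RCOR1 and RCOR3 differed by 0.13 and 0.20, and by 0.13 and 0.23.

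In none of the 25 gene lists was a member 2-fold different in the same direction at both hours, where 0.274% of all genes were. Of 34 DNA replication genes FEN1 was higher with full-length NRSF at 24 h, where 1.93% of all genes were. CDC45, a helicase subunit, and CDT1, a licensing factor read by an uncertain probe set, were higher with truncated NRSF at 48 h, where 1.31% of all genes were. CDC45 read 117.9 and 99.5 against 139.8 and 215.1 (−0.25 and −1.11), and CDT1 differed by 0.34 and −1.08. Of 34 mitosis genes PLK1, a mitotic kinase, was higher with full-length NRSF at 24 h, at 207.8 against 82.44 (1.33), and read 169 against 171.9 at 48 h. Counts of 1 of 34 at 24 h lie near the share of all genes.

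Stress and signalling lists were as sparse. PPP1R15A, a phosphatase subunit that ends the integrated stress response, read 2565 and 1302 with full-length against 1376 and 840.5 with truncated NRSF (0.90 and 0.63; −0.05 at 0 h). NUPR1, a stress-induced nuclear protein, read 190.9 against 71.69 at 48 h (1.41; 0.821% of all genes were 2-fold higher with full-length NRSF there) but differed by −0.09 at 24 h. RSAD2, the interferon-induced antiviral enzyme viperin, read 157.4 and 74.53 against 341.1 and 123.5 (−1.12 and −0.73), and 1.46% of all genes were 2-fold higher with truncated NRSF at 24 h. The orphan receptor gene NR4A3 differed by −1.16 and 0.24, and the oxygen sensor gene EGLN3 by −1.16 and −0.12.

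RPL34 and COX8A, both bright, read lower with full-length NRSF at every hour, 0 h included. RPL34, a ribosomal protein, read 7696, 5850 and 9615 with full-length NRSF at 0, 24 and 48 h. It read 15480, 10560 and 14980 with truncated NRSF, a difference of −1.01, −0.85 and −0.64. COX8A, a subunit of cytochrome c oxidase, read 2073, 1386 and 1500 against 3460, 2327 and 2902 (−0.74, −0.75 and −0.95). In both genes the 3 untreated arrays, at 13650 to 20980 and 2221 to 2991, read above the full-length array of the same hour. Neither was called by the limma fit (adjusted p of 0.15 and 0.13). NDUFA1, a subunit of respiratory complex I, stood in opposite directions before and after, with −0.96 at 0 h, 1.21 at 24 h and 0.37 at 48 h. The median of 28 ribosomal protein genes was 0.07 at 24 h and −0.18 at 48 h, and that of 28 oxidative phosphorylation genes 0.19 and −0.08.

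**Figure D4:**
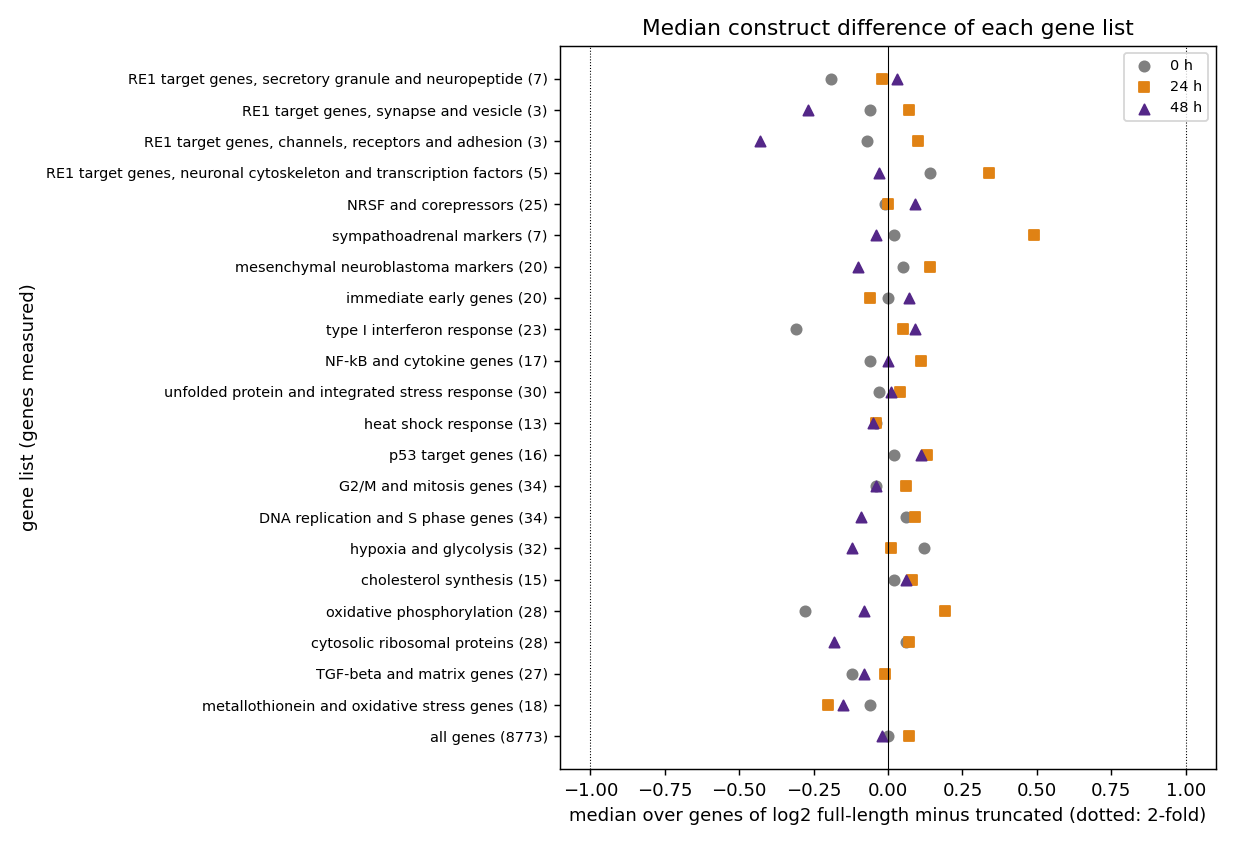
Median construct difference (log2 full-length minus truncated) over the measured genes of each list with 3 or more of them, at 0, 24 and 48 h, with dotted lines at 2-fold. The median furthest from 0 is 0.49, for 7 sympathoadrenal markers at 24 h, those of all 8773 genes are 0.00, 0.07 and −0.02, and lists with few genes scatter most.

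Of the markers of cell identity, mesenchymal ones were bright and noradrenergic ones mostly dim on all 4 arrays, and none was 2-fold different in 1 direction at both hours. The noradrenergic markers TH, the rate-limiting enzyme of catecholamine synthesis, DBH and PHOX2A did not pass the signal rule, while 7 of 22 sympathoadrenal markers did. GATA3 read 1912 and 1781 with full-length NRSF. Of 26 mesenchymal markers 20 passed, with VIM at 10500 and 9354 with full-length NRSF and PRRX1 at 2027 and 5612 against 1811 and 4016. HAND1, a sympathetic lineage factor, read 152.1 against 350.4 at 48 h (−1.20) and 147.8 against 105.5 at 24 h. For other lineages, the signal rule was passed by 2 of 13 epithelial markers (KRT8 and KRT18), by PTPRC of 14 blood markers, by MITF of 12 for Schwann cells and melanocytes, and by PECAM1 of 10 endothelial ones. The blood gene PTPRC read 75.11 and 134.6 against 163.8 and 175.4. Of 11 blood markers with a probe set, 10 did not pass the rule, at signals of 71.19 or less. Together the 11 summed to 238.6 and 325.2 with full-length against 386.1 and 414 with truncated NRSF. At 24 h the Schwann and melanocyte sum (338.8 against 472.6) and the endothelial sum (301.3 against 379.4) were also higher with truncated NRSF. At 48 h those sums were not, nor was the epithelial sum at 24 h (4104 against 3818). The part of these markers in any difference was not tested.

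The size and direction of differences moved with brightness at 24 h. In 5 equal groups of the members by mean signal, from dim to bright, the median difference at 24 h was −0.10, −0.05, 0.02, 0.07 and 0.09, whereas at 48 h it lay between −0.05 and 0.02. The dimmest group held 152 of the 308 probe sets higher with full-length and 244 of the 456 higher with truncated NRSF at 24 h. The brightest group held 21 and 20. In the median, the truncated 24 h array thus read dim genes higher and bright genes lower than the full-length array of that hour, and its part in any single gene's difference was not tested beyond the fits without that array.

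**Figure D5:**
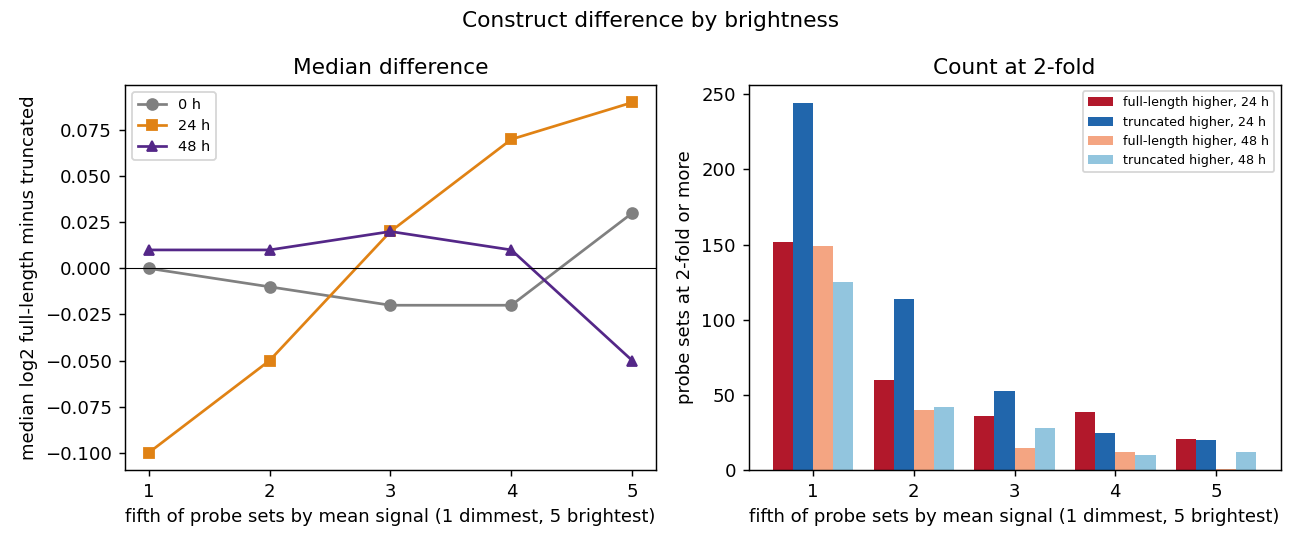
Members in 5 groups of equal size by mean signal on the 4 arrays, from dimmest to brightest: the left panel plots the median difference (log2 full-length minus truncated) at 0, 24 and 48 h, and the right panel the count of probe sets at 2-fold or more in each direction. The 24 h median goes from −0.10 to 0.09 and counts drop from 152 and 244 in the dimmest group to 21 and 20 in the brightest.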

How the data were processed

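The deposited values are intensities on a linear scale from 9 Affymetrix arrays, which the authors made in GCOS (named in the submitters' processing notes, without a version). The mean signal after trimming 2% at each end was 150 on every array, so the authors' scaling to 1 target was kept. Of 54675 probe sets 62 controls were left out. Gene names came from the platform annotation, updated through Entrez ID for 14640 of 14643 member probe sets with 1 gene; 766 name several genes and 1173 none here.

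Signals below 50 were set to 50 before log2. Counts at 2-fold compare single arrays and carry no test. The construct fit used limma 3.58.1 in R 4.3.3 (lmFit, then eBayes with its trend option; two-sided; called at a Benjamini-Hochberg adjusted p under 0.05 over 16582 probe sets) on log2 signal with construct and hour. Its 1 residual degree of freedom (22.8 in total after moderation) is the change of the construct difference between hours, not a spread of cultures, so the p-values cover no more than the spread of these 4 arrays, which may be technical, and the number of arrays limits the precision. The fit was also run on simulated data with independent normal noise, which cannot check the p-values against a spread of cultures. Tables were handled with Python 3.11.15 and pandas 2.3.3.

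The members, the 25 gene lists and the rule for named genes were chosen with earlier results of these data known. The rule takes REST, up to 15 genes per direction with the largest smaller difference of both hours (2-fold at each, signal of 50 or more on both arrays of an hour), the fitted calls, and from each list the 4 with the largest mean difference. Genes named outside it are said to be chosen after their values were seen, or are list members with values given as a description. Alternatives changed the normalization, the floor, the filter, the variance trend, the probe set rule and the arrays in the fit.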

Additional observations from a re-analysis of the deposited data

Results flagged for a closer look

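MITF, the regulator of the melanocyte lineage, stood in opposite directions at the 2 hours: −0.80 at 24 h and 0.80 at 48 h. Its signals were 144 and 159.4 with full-length NRSF and 250.5 and 91.45 with truncated NRSF, and 86.14 and 122.8 at 0 h. The difference between hours was not tested, since each hour has 1 array per construct. Of the genes named by the rule it was the only one beyond 0.5 log2 in opposite directions at the 2 hours.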

How the results depend on the processing

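Calls of the construct fit depended most on the processing. Those higher with full-length and with truncated NRSF, 2 and 4 as reported, were 3 and 19 with quantile normalization, 0 and 2 with cyclic loess, 0 and 2 with the floor at the 25th percentile of all signals (8.266), and 2 and 11 with the floor at 100. They were 4 and 24 with a signal of 100 on all 4 arrays, 2 and 9 with 200 on 2 of 4, 1 and 2 with the untreated arrays added, and 4 and 13 with them but without the truncated 24 h array. Without a filter they were 0 and 0 (934 with an unadjusted limma p under 0.05), and without the variance trend 0 and 0 (1076). S100A6 and 1554089_s_at were called in 8 of 10 alternatives, FEN1 and 217379_at in 5, and CDC73 and 230746_s_at in 4; adjusted p ranged from 3.4e-05 to 1 for S100A6 and from 0.0007 to 1 for FEN1. Probe sets 2-fold different at 24 h, at 48 h, and at both hours with full-length and truncated higher numbered 400, 155, 3 and 6 with the floor at 100, 300, 119, 3 and 6 with 100 on all 4 arrays, and 284, 117, 3 and 6 with 200 on 2 of 4, where fewer dim probe sets can pass. Without a filter 1370 differed at 24 h. Under quantile normalization 40 and under loess 30 of the 44 at both hours remained. No named gene that was 2-fold at both hours or called turned its sign in any alternative run. With the mean of all probe sets, AP1G1 stood at 0.45, CDC73 at 0.47, FEN1 at 0.62 and N4BP1 at −0.54. No paired analysis was possible because the labels give no replicate numbers; the hour is already a block in the fit. Signal near background limits the dim members most.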
